A study of Mus musculus with 12 samples.

Results

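A set of 10 genes that mark regulatory T cells was followed in 12 mouse tumours that had formed from 4T1, a murine breast cancer cell line. The genes were chosen by name, and all 10 were found among the 57186 genes of the count table and among the 19255 genes with enough counts to test. In 6 tumours the 4T1 cells were parental (genotype WT). In the other 6 (Tn) Cosmc had been silenced in these cells with CRISPR/Cas9. Cosmc, listed here under its symbol C1galt1c1, encodes the chaperone that O-glycan elongation depends on. Cells without it expose the short Tn antigen. Both groups share the cell line, the breast as tissue and a single labelled batch. Strain, sex and age of the mice, the time of growth, the number of silenced clones and the size of each tumour are not in the labels used here.

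Regulatory T cells are CD4+ T cells that restrain other lymphocytes, and they often accumulate in tumours. Their identity is held by the transcription factor Foxp3. They take up interleukin-2 through a receptor whose alpha chain is CD25 (Il2ra), and inside tumours they often carry the chemokine receptor Ccr8. Several of their other markers are shared with cells of different kinds: costimulatory receptors of the TNF receptor superfamily appear on any activated T cell, and the surface proteins GARP (Lrrc32) and CD39 (Entpd1) are also made outside the T cell lineage.

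Foxp3 (ENSMUSG00000039521) lies at chrX:7439883-7461484 in GRCm39 on the forward strand. Its partners in the nucleus are Ikzf2 (chr1:69570373-69727004, reverse strand), which encodes Helios, and Ikzf4 (chr10:128466712-128505227, reverse strand), which encodes Eos, both zinc finger factors of the Ikaros family. The receptors are Il2ra (chr2:11647618-11698004, forward), Ccr8 (chr9:119921180-119924263, forward), Tnfrsf18 (chr4:156110621-156113352, forward), which encodes GITR, Tnfrsf4 (chr4:156098293-156101069, forward), which encodes OX40, and Tnfrsf9 (chr4:150999019-151030559, forward), which encodes 4-1BB. GARP, the docking protein for latent TGF-beta, comes from Lrrc32 (chr7:98138490-98151388, forward), and CD39, an enzyme that degrades extracellular ATP, from Entpd1 (chr19:40600810-40731585, forward). Tnfrsf4 and Tnfrsf18 are neighbours on chromosome 4. Foxp3 shares 31.5% of its exon length with other annotated genes and Tnfrsf18 27.2%, so their counts are less certain than those of Il2ra, Ccr8, Tnfrsf4, Tnfrsf9, Lrrc32 and Entpd1, which share none.

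The 250 bases before the annotated transcript start of each member were read from GRCm39 and searched on both strands for 6 short motifs, because these genes are usually listed together. The forkhead core TGTTTA, the motif of the Foxp3 protein's own family, was found in 1 of 10 members, Foxp3, and in 9.4% of the 14897 promoters of the same length. The NFAT core GGAAA was in 7 of 10 members and in 57.1% of promoters. The STAT motif TTCNNNGAA was in 1 member, Tnfrsf9, against 6.77% of promoters, and the AP-1 motif TGANTCA in the same 1 member, against 5.05%. Neither the Runx core TGTGGT, present in 12.3% of promoters, nor the ETS core CCGGAA, present in 16.1%, occurred in a member. The NFAT core can share letters with the ETS core and with the STAT motif. Each window depends on the annotated start: that of Tnfrsf18 did not match the promoter RefSeq gives for the gene, and Ikzf2, Ikzf4 and Lrrc32 were not compared with RefSeq. The windows with those matches are shown in part for Foxp3 and Tnfrsf9. Those of Ccr8 and Lrrc32 are shown because these 2 members separated the groups in opposite directions. The whole Foxp3 window lies in annotated exons. Capitals mark the matches. The Foxp3 line is a stretch of 30 bases at chrX:7445726-7445755 around its forkhead match, the Ccr8 line is chr9:119920930-119921179, the Tnfrsf9 line is the first 169 bases of its window, chr4:151012206-151012374, and the Lrrc32 line is chr7:98138654-98138903, all on the forward strand and written 5′ to 3′.
Foxp3: ataagaaaagaaTAAACAaagtaagagagc
Ccr8: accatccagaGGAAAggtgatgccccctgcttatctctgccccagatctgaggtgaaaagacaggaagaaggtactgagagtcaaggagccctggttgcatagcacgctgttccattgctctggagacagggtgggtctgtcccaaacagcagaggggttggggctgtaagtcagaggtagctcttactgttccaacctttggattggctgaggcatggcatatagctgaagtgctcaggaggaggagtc
Tnfrsf9: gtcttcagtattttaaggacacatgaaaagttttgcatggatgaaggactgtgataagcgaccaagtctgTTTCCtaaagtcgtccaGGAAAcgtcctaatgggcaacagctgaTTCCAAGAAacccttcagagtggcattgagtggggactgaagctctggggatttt
Lrrc32: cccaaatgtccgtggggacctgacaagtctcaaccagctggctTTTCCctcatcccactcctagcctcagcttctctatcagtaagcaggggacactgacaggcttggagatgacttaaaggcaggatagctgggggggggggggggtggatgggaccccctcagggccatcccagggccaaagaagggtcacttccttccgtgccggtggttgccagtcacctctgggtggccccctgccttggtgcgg
In these letters the forkhead core is read on the opposite strand in Foxp3, the NFAT core is the single match in Ccr8 and in Lrrc32, and Tnfrsf9 holds 2 NFAT cores followed by the STAT motif TTCCAAGAA. The third NFAT core of Tnfrsf9 and its AP-1 motif lie beyond the stretch shown, and so does the NFAT core of Foxp3. A match describes the letters only.

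Counts summed to between 113575859 and 156880766 per tumour, and levels are given as CPM, counts relative to the library size after TMM scaling. The silenced gene was lower in all 6 Tn tumours: C1galt1c1 averaged 19.6 ± 3.05 CPM in WT against 11.3 ± 0.775 CPM in Tn (SD, n = 6 each; edgeR quasi-likelihood test, adjusted p = 0.000201). T cell RNA was higher in Tn. Cd3e, an invariant chain of the T cell receptor complex, ran from 0.199 to 1.78 CPM in WT and from 4.2 to 46.6 CPM in Tn, and all 13 T cell markers rose. Tn tumour 4 stood apart, with summed B cell markers of 759 CPM against at most 2.78 CPM in every other tumour, summed lymph node stroma markers of 898 CPM against at most 15 CPM, and the highest T cell sum, 621 CPM. Tn tumour 6 had the highest keratinocyte sum, 3529 CPM, and WT tumour 6 the lowest Cd3e. Results are therefore also given without Tn tumour 4 and without these 3 libraries. Messenger RNA of each tumour as a whole was sequenced, so fewer cells of a type and less RNA per cell cannot be told apart.

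Of the 10 genes, 5 rose in Tn (Foxp3, Il2ra, Ccr8, Tnfrsf18 and Tnfrsf4), 1 fell (Lrrc32), and 4 did not pass the test (Ikzf2, Ikzf4, Tnfrsf9 and Entpd1). Among all genes tested, 36.8% were called, 19.5% higher and 17.4% lower in Tn. These shares also stand beside each list of genes counted below. The median log2 fold change of the members was 1.16, beside 0.01 for all genes. Without Tn tumour 4 the counts were 4 higher and 1 lower, with a median of 0.82, beside 19.4% higher and 16.8% lower among all genes. Without the 3 libraries they were 3 higher and 1 lower, with a median of 0.80, beside 16.9% and 14.2%. In 2 members the groups did not overlap: Ccr8, with every Tn tumour above every WT tumour (8.81% of all genes did so), and Lrrc32, with every Tn tumour below (8.35%).

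**Figure D1:**
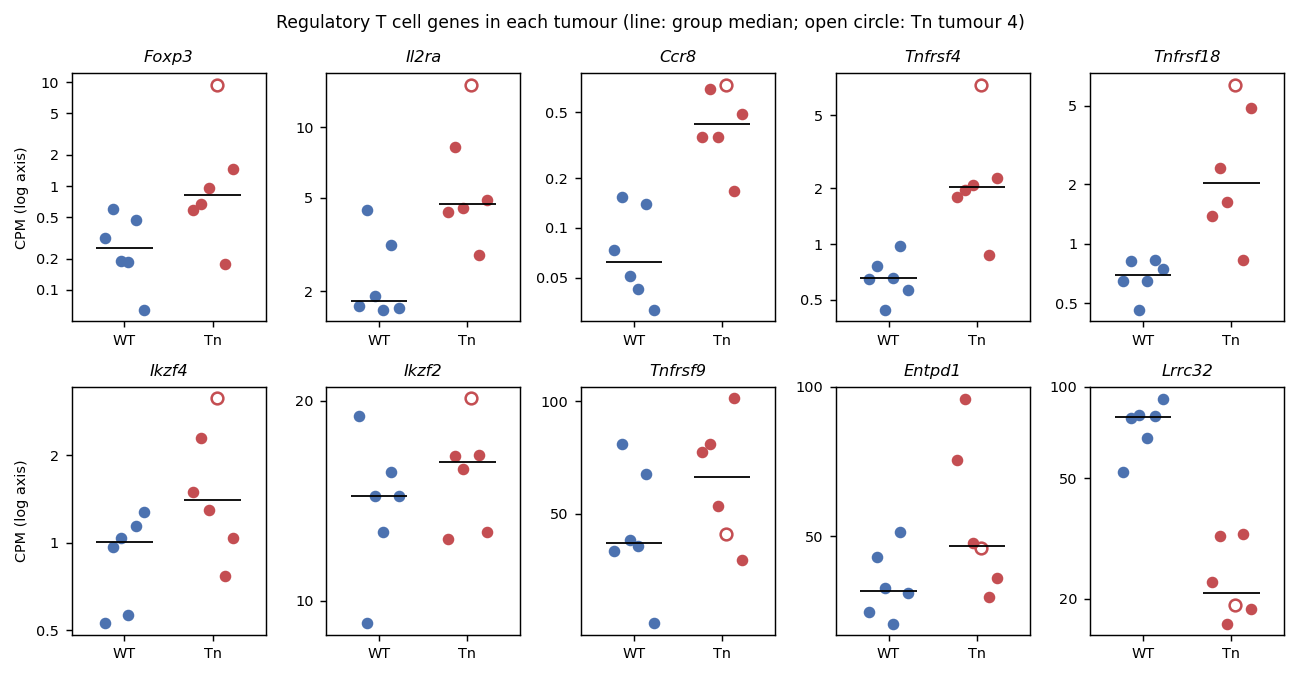
Each panel plots the CPM of 1 gene (log axis) in the 6 WT and 6 Tn tumours; points are tumours, lines are group medians and the open circle is Tn tumour 4. Ccr8 and Lrrc32 separate the groups in opposite directions, and Tn tumour 4 is the highest point for Foxp3 at 9.48 CPM.

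Foxp3 was scarce in WT tumours and reached its highest level in Tn tumour 4. In WT tumours 1 to 6 it was at 0.313, 0.595, 0.19, 0.186, 0.469 and 0.0638 CPM, which rest on 8 to 74 counts per tumour. In Tn tumours 1 to 6 it was at 0.584, 0.675, 0.951, 9.48, 0.176 and 1.47 CPM. Tn tumours 2, 3, 4 and 6 lay above all WT tumours, tumour 1 lay just below the highest WT tumour and tumour 5 lay below the WT median. The log2 fold change was 2.88 ± 0.90 (SE; edgeR, adjusted p = 0.0251). Tn tumour 4, the tumour with the high B cell and lymph node stroma sums, alone held 71.1% of the Foxp3 CPM summed over the 6 Tn tumours. Without it the log2 fold change was 1.36 (edgeR, adjusted p = 0.0785), and without the 3 libraries 0.78 (edgeR, adjusted p = 0.247), so the call rested on that tumour. It was also lost when WT tumour 3 (2.77, edgeR adjusted p = 0.0539) or WT tumour 4 (2.77, edgeR adjusted p = 0.0534) was left out, and with limma voom (1.83, adjusted p = 0.063) and with no filter on low counts (2.88, edgeR adjusted p = 0.062). Flicr, a noncoding gene that overlaps Foxp3, averaged 0.0858 ± 0.0492 CPM in WT against 0.0834 ± 0.0572 CPM in Tn (SD, n = 6 each) and was not called (edgeR, adjusted p = 0.954). Ppp1r3f, which also overlaps Foxp3, averaged 0.483 ± 0.181 CPM in WT and 0.54 ± 0.135 CPM in Tn and was not called (edgeR, adjusted p = 0.655). Of the remaining overlapping genes Ccdc22 had 0 CPM in every tumour and Gm36995 was not tested.

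Ccr8, a receptor for the chemokines CCL1 and CCL8, gave the cleanest separation among the members that rose. WT tumours 1 to 6 had 0.074, 0.153, 0.0511, 0.0429, 0.139 and 0.0319 CPM of Ccr8, and Tn tumours 1 to 6 had 0.356, 0.691, 0.353, 0.735, 0.168 and 0.49 CPM. Its lowest Tn tumour, number 5, was just above its highest WT tumour, and Tn tumour 4 was close to Tn tumour 2 and did not stand alone. Its log2 fold change was 2.50 ± 0.46 (SE; edgeR, adjusted p = 0.00142), 2.34 without Tn tumour 4 and 2.11 without the 3 libraries (edgeR, adjusted p = 0.0102). The WT values rest on 4 to 19 counts per tumour and the Tn values on 21 to 102.

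Il2ra encodes the chain that gives the interleukin-2 receptor its high affinity. It was at 1.73, 4.42, 1.9, 1.66, 3.16 and 1.69 CPM in the WT tumours and at 4.34, 8.21, 4.51, 15.2, 2.85 and 4.88 CPM in the Tn tumours. The groups overlapped, since WT tumour 2 lay above Tn tumours 1 and 5. On the log2 scale the fold change was 1.46 ± 0.41 (SE; edgeR, adjusted p = 0.0155). It was 1.04 without Tn tumour 4 (edgeR, adjusted p = 0.0257) and 0.97 without the 3 libraries (edgeR, adjusted p = 0.0717).

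The costimulatory receptors GITR and OX40, from adjacent genes, both rose. Tnfrsf18 was between 0.46 and 0.825 CPM in WT, with a median of 0.696, and at 1.38, 2.43, 1.62, 6.4, 0.824 and 4.86 CPM in the Tn tumours. Tnfrsf4 was between 0.438 and 0.981 CPM in WT, with a median of 0.654, and at 1.79, 1.97, 2.1, 7.32, 0.872 and 2.29 CPM in the Tn tumours. For both genes 5 of 6 Tn tumours lay above all WT tumours, tumour 5 lay within the WT range and tumour 4 was the highest. The log2 fold change was 2.08 ± 0.45 for Tnfrsf18 (SE; edgeR, adjusted p = 0.00374) and 2.01 ± 0.44 for Tnfrsf4 (SE; edgeR, adjusted p = 0.00382). Both calls held in all 20 alternative fits, with log2 fold changes from 1.22 to 2.28 and from 1.28 to 2.2. Gm16008, which overlaps Tnfrsf18, moved the other way, from 0.192 ± 0.0883 CPM in WT to 0.0694 ± 0.0638 CPM in Tn (SD, n = 6 each; edgeR, adjusted p = 0.0493).

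Tnfrsf9, the third costimulatory receptor of the set, did not pass the test. Its WT tumours held 25.5 to 76.8 CPM with a median of 41.8, and its Tn tumours 37.6 to 102 CPM with a median of 62.9. The log2 fold change was 0.42 ± 0.29 (SE; edgeR, adjusted p = 0.275). Its highest value was in Tn tumour 5, where Foxp3, Ccr8, Tnfrsf4 and Tnfrsf18 had their lowest Tn values.

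Of the Ikaros family members, neither passed. Ikzf4 was between 0.527 and 1.28 CPM in WT and between 0.768 and 3.16 CPM in Tn, with Tn tumours 1, 2, 3 and 4 above all WT tumours. Its log2 fold change was 0.87 ± 0.35 (SE; edgeR, adjusted p = 0.0705), and it passed only without Tn tumour 5 (1.02, edgeR adjusted p = 0.0331) and with DESeq2 (adjusted p = 0.0397). Ikzf2 was between 9.25 and 19 CPM in WT and between 12.4 and 20.2 CPM in Tn, and changed by 0.14 ± 0.17 on the log2 scale (SE; edgeR, adjusted p = 0.528).

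Lrrc32 fell in Tn, against the direction of the other called members. In WT tumours 1 to 6 it was at 52.3, 78.9, 80.5, 67.5, 80 and 90.9 CPM, in Tn tumours 1 to 6 at 22.7, 32.3, 16.6, 19.1, 32.8 and 18.5 CPM. The highest Tn tumour was well below the lowest WT tumour, and Tn tumour 4 was in the middle of its group. Its log2 fold change was -1.67 ± 0.19 (SE; edgeR, adjusted p = 9.98e-05), and it stayed past the threshold in all 20 alternative fits, between -1.78 and -1.44. GARP is also known from platelets and endothelium, so markers of these and of stromal cells are given beside it. Among 10 endothelial markers 7 fell and none rose, with a median log2 fold change of -0.78 and sums of 338 to 649 CPM in WT and 226 to 441 CPM in Tn. Aplnr, Kdr, Vwf and Tek had the smallest p of them. Among 10 fibroblast and pericyte markers 8 fell and 1 rose, with a median of -1.55 and sums of 6295 to 15383 CPM in WT and 2580 to 4041 CPM in Tn. Of 4 platelet markers tested 1 fell, with a median of 0.11. It was Gp5, at most 0.199 CPM in WT and 0.0865 CPM in Tn. The platelet sums were 7.92 to 30.7 CPM in WT and 15.4 to 26.4 CPM in Tn. Of these sums Pf4 alone held 5.7 to 27.8 CPM in WT and 7.49 to 22.8 CPM in Tn, and the platelet marker Gp1bb was at or near 0 throughout. The part of these markers in the fall of Lrrc32 was not tested.

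Entpd1 did not pass. It was between 33.4 and 51.1 CPM in WT, with a median of 38.9, and at 71.3, 94.3, 48.4, 47.3, 37.8 and 41.3 CPM in the Tn tumours. The log2 fold change was 0.49 ± 0.21 (SE; edgeR, adjusted p = 0.0913), or 0.58 without Tn tumour 5 (edgeR, adjusted p = 0.0464). Its highest values were in Tn tumours 1 and 2, which also had the highest macrophage marker sums, 3542 and 3350 CPM against 769 to 1188 CPM in WT. Of 8 macrophage markers 5 rose, with a median log2 fold change of 1.01. Their part in the level of Entpd1 was not tested.

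**Figure D2:**
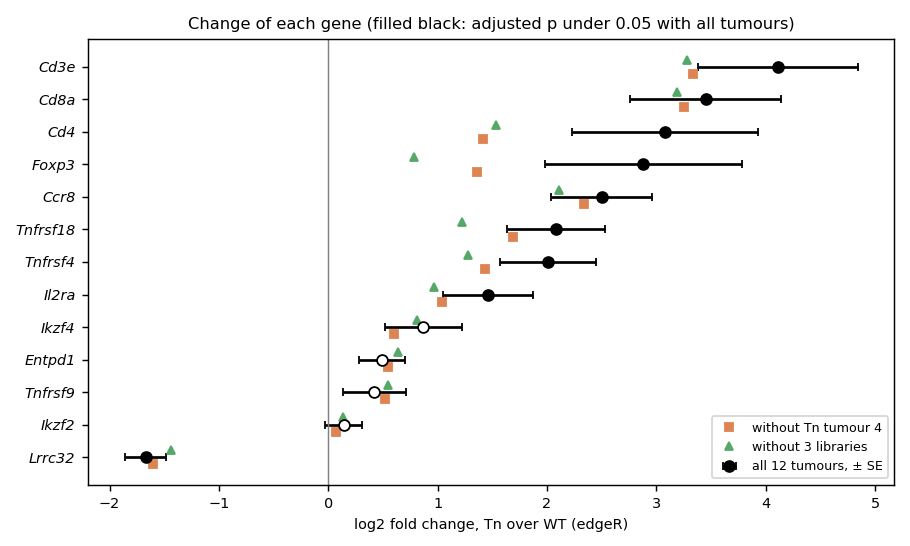
Log2 fold change of Tn over WT for the 10 members and Cd3e, Cd4 and Cd8a; black points with bars are all 12 tumours with SE (filled where the adjusted p is under 0.05), squares leave out Tn tumour 4 and triangles leave out 3 libraries. Foxp3 moves most between the fits, from 2.88 to 0.78, and Lrrc32 stays negative in all 3.

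The label of the set was checked by comparing levels per kilobase of exon. Foxp3 and Ccr8 lay below Cd3e per kilobase in all 12 tumours. Another 4 did not look like T cell transcripts on this scale in WT tumours: per kilobase, Tnfrsf9 was 53.7 to 192 times the level of Cd3e, Lrrc32 39.1 to 397 times, Entpd1 21 to 141 times and Ikzf2 3.09 to 25.5 times. In the Tn tumours Tnfrsf9 remained above Cd3e per kilobase in all 6, Lrrc32 and Entpd1 in 5, and Ikzf2 in 2. Il2ra, Tnfrsf4 and Tnfrsf18 were also above Cd3e per kilobase in all 6 WT tumours, by at least 1.27, 1.46 and 1.24 times, and in 0, 2 and 1 of the 6 Tn tumours. Tnfrsf9, Lrrc32, Entpd1 and Ikzf2 together made up 96.5% to 97.7% of the summed member CPM in WT and 75.5% to 97.1% in Tn. In these tumours the set is therefore described gene by gene, and its sum is not used as a level of regulatory T cells. The lowest levels per kilobase were those of Ccr8 and Foxp3 in WT, with medians of 0.0532 and 0.0549 CPM per kilobase, and their ranges overlapped.

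Each member was next set beside the T cell RNA of its own tumour, as the ratio of its CPM to that of Cd3e. Foxp3 per Cd3e was 0.576, 0.583, 0.211, 0.257, 0.263 and 0.32 in the WT tumours and 0.0507, 0.0376, 0.216, 0.203, 0.0419 and 0.32 in the Tn tumours. Tn tumours 1, 2 and 5 were far below the WT range, tumours 3 and 4 were near its lower end and tumour 6 was inside it. On the log2 scale, with 0.05 CPM added to both genes, the mean difference was -1.84 (exact permutation test of the tumours' group labels, two-sided, p = 0.0108, adjusted over all genes 0.0112). Of the Tn ratios given above 4 lay below every WT ratio, and 5 of 6 did once 0.05 CPM was added. All 10 members were called lower in this ratio. So were 98.4% of all genes and 0% were called higher (also none at an unadjusted p under 0.05 in the exact test), since the divisor, Cd3e, rose by 4.11 on the log2 scale. The median difference was -2.62 for the members and -3.66 for all genes. Ccr8 fell least, by 1.73 (exact permutation test, adjusted p = 0.00678), then Foxp3, Tnfrsf18 by 1.97 (exact, adjusted p = 0.0156), Tnfrsf4 by 1.99 and Il2ra by 2.34 (exact, adjusted p = 0.00235 for both). Ikzf4 fell by 2.91, Entpd1 by 3.23, Tnfrsf9 by 3.24, Ikzf2 by 3.50 and Lrrc32 by 5.35, each with an exact permutation adjusted p of 0.00235. Of the 12 other T cell markers 7 were called lower per Cd3e, with a median of -0.71, and of 9 CD8 and cytotoxic markers 2 were, with a median of -0.81. Cd8a, the CD8 coreceptor, differed per Cd3e by -0.03 (exact permutation test, adjusted p = 0.918).

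**Figure D3:**
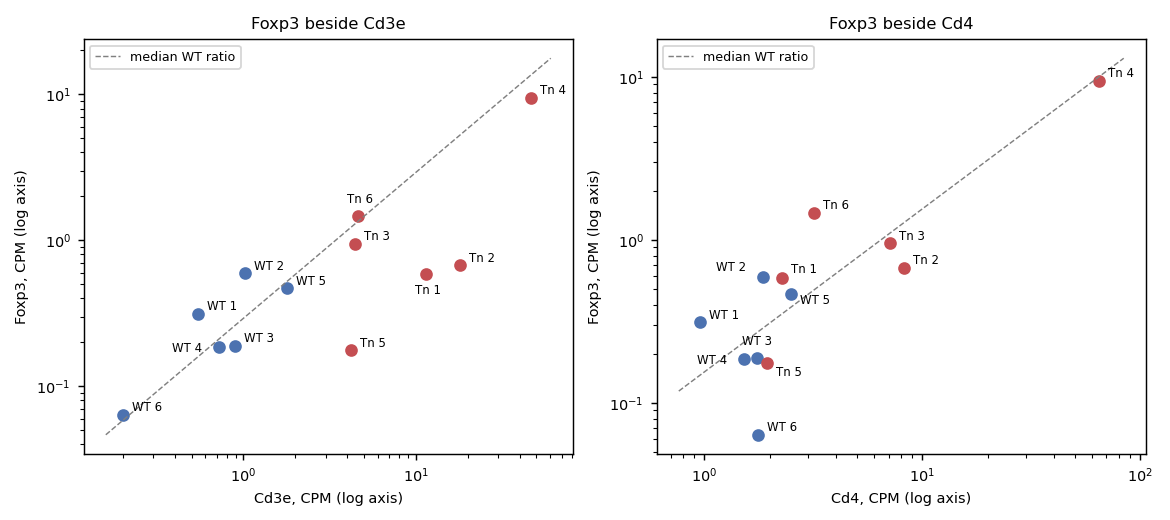
Foxp3 CPM against Cd3e CPM (left) and Cd4 CPM (right) in each tumour, both axes log; the dashed line is the median WT ratio. Against Cd3e, Tn tumours 1, 2 and 5 lie far below the line; against Cd4 both groups lie on both sides of it.

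This result depended on the test and on the divisor. In edgeR with Cd3e as an offset, 8 members were lower, and neither Foxp3 (-1.24, adjusted p = 0.103) nor Ccr8 (-0.90, adjusted p = 0.266) was called. Regulatory T cells carry CD4, and Cd4 itself fell per Cd3e by 1.80 (exact permutation test, adjusted p = 0.00457). Foxp3 per Cd4 was 0.328, 0.32, 0.109, 0.123, 0.187 and 0.036 in the WT tumours and 0.258, 0.0818, 0.134, 0.147, 0.0913 and 0.463 in the Tn tumours, and the groups lay over each other. The difference was -0.04 on the log2 scale (exact permutation test, adjusted p = 0.955), and for Ccr8 it was 0.07 (exact, adjusted p = 0.936). Of the members 2 were called lower per Cd4, Ikzf2 by 1.70 (exact, adjusted p = 0.043) and Lrrc32 by 3.55 (exact, adjusted p = 0.0153), where 63.4% of all genes were called lower and 0.0675% higher. With Cd5, a pan-T cell surface protein, as divisor, 4 members were called lower (Ikzf2, Ikzf4, Lrrc32 and Entpd1), beside 77.9% of all genes called lower and 0.125% higher, and Foxp3 differed by -0.12 (exact, adjusted p = 0.832). Cd4 RNA is also made by some myeloid cells, and 5 of 8 macrophage markers rose in Tn. Per kilobase Cd4 was 1.42 to 8.99 times the level of Cd3e in WT, above it in all 6 tumours. In Tn it was 0.199 to 1.63 times that level, above it in 2 tumours. The part of myeloid cells in the level of Cd4 was not tested, so a ratio to Cd4 is not read as a level per CD4+ T cell. Cd4 was higher in Tn (log2 fold change 3.08, edgeR adjusted p = 0.0138), and Tn tumour 4 held 74% of its CPM summed over the Tn tumours. With Tn tumour 4 left out Cd4 rose by 1.41 on the log2 scale (edgeR, adjusted p = 0.0154), and with limma voom over all tumours it was 1.62 and not called (adjusted p = 0.0634).

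**Figure D4:**
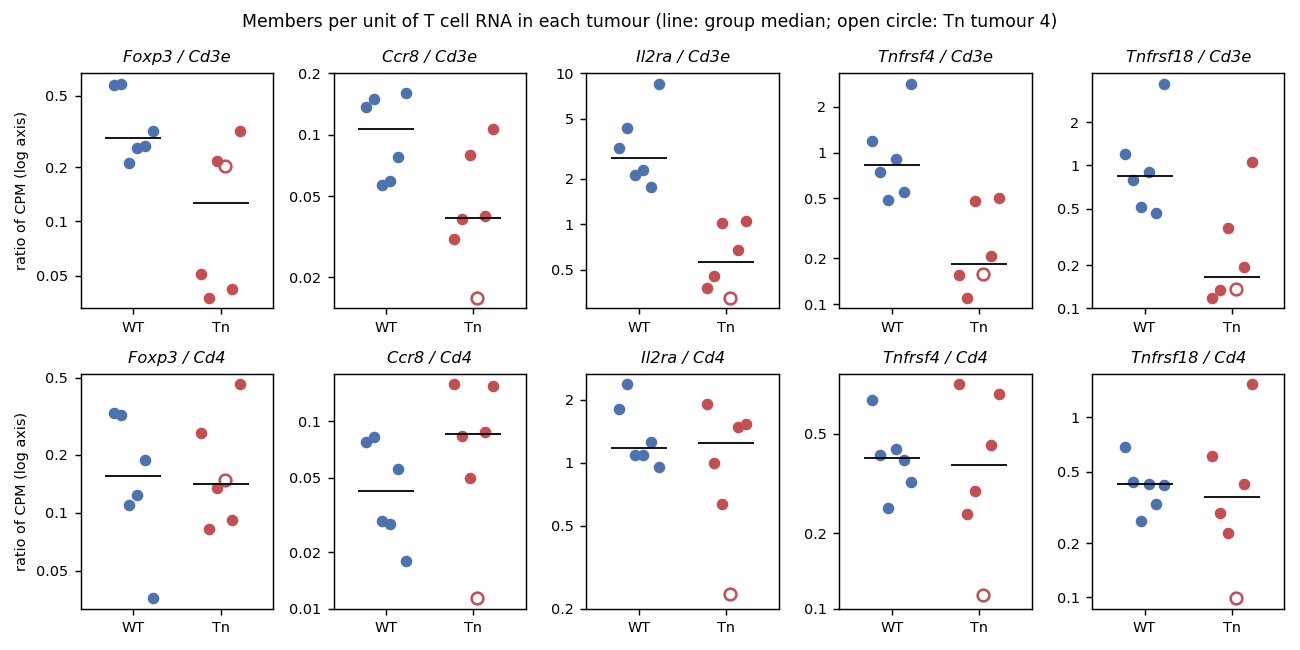
Ratio of the CPM of 5 members to Cd3e (upper row) and to Cd4 (lower row), log axes, with points for tumours, lines for group medians and an open circle for Tn tumour 4. Per Cd3e most Tn tumours lie below the WT tumours; per Cd4 the groups overlap for all 5.

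When the members were divided by Foxp3 itself, none was called. In the exact permutation test 0 of 19254 genes were called higher and 0 lower, with a smallest adjusted p of 0.07, and at an unadjusted p under 0.05 there were 16 higher and 10871 lower, 1 of them a member (Lrrc32). Ccr8 per Foxp3 was 0.231 to 0.5 in WT and 0.0775 to 1.02 in Tn, where tumour 4 gave the lowest and tumour 2 the highest value. Il2ra per Foxp3 was 5.53 to 26.5 in WT and 1.61 to 16.2 in Tn. Differences were 0.11 for Ccr8, -0.14 for Tnfrsf18, -0.15 for Tnfrsf4 and -0.50 for Il2ra, and -3.51 for Lrrc32 (exact permutation test, adjusted p = 0.07). Tn tumour 5, with 22 counts of Foxp3, decided these counts: without it 10 genes were called higher (0.0519%) and 16738 lower (86.9%), among them 3 members, Ikzf2 by 2.13, Tnfrsf9 by 2.00 and Lrrc32 by 4.07.

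The ligands and partner chains of the members were mostly not called. Of 16 listed, 15 were tested, of which 3 rose and 1 fell, beside 19.5% higher and 17.4% lower among all genes. Their median log2 fold change was 0.17. Without Tn tumour 4 these counts were 4 and 2. Il2, the cytokine itself, had too few counts to test, with 0.0496 ± 0.0234 CPM in WT against 0.068 ± 0.0652 CPM in Tn (SD, n = 6 each). The other chains of its receptor rose. Il2rb, the signalling beta chain shared with interleukin-15, went from 8.28 ± 3.51 to 49.4 ± 27 CPM (log2 fold change 2.58 ± 0.38, edgeR adjusted p = 0.000432). For Il2rb every Tn tumour lay above every WT tumour, as for 8.81% of all genes. Il2rg, the common gamma chain, went from 30 ± 11.2 to 68.7 ± 36.3 CPM (1.20 ± 0.34, edgeR adjusted p = 0.0154). Tnfsf4, the OX40 ligand, rose from 0.268 ± 0.0974 to 0.637 ± 0.324 CPM (1.25 ± 0.38, edgeR adjusted p = 0.0231), a call lost without the 3 libraries (1.18, edgeR adjusted p = 0.0517). The GITR ligand Tnfsf18 (1.06, adjusted p = 0.1) and the 4-1BB ligand Tnfsf9 (0.17, adjusted p = 0.26) did not pass in edgeR. Neither did the Ccr8 ligands Ccl1 (0.98, adjusted p = 0.0698) and Ccl8 (0.46, adjusted p = 0.414).

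GARP holds TGF-beta until an integrin releases it. Itgav, the alpha V integrin chain, fell from 282 ± 30.9 to 207 ± 22.3 CPM (log2 fold change -0.45 ± 0.09, edgeR adjusted p = 0.00244). For Itgav every Tn tumour lay below every WT tumour, as for 8.35% of all genes. Its beta 8 partner Itgb8 was low and variable, at 1.49 ± 1.09 and 0.83 ± 0.655 CPM, and was not called (edgeR, adjusted p = 0.252). The cytokines Tgfb1 (0.10), Tgfb2 (-0.62) and Tgfb3 (0.32) did not pass in edgeR with all tumours, with adjusted p of 0.37, 0.0764 and 0.0969. Tgfb3 was called higher without Tn tumour 4 (0.40, edgeR adjusted p = 0.0305) and without the 3 libraries (0.45, edgeR adjusted p = 0.0435). Nt5e, which encodes CD73 and makes adenosine from the product of CD39, averaged 721 ± 155 CPM in WT against 597 ± 106 CPM in Tn. Neither it (-0.27, adjusted p = 0.187) nor the adenosine receptors Adora2a (-0.26, adjusted p = 0.559) and Adora2b (-0.19, adjusted p = 0.689) passed in edgeR with all tumours. Adora2a was called lower without Tn tumour 4 (-0.68, edgeR adjusted p = 0.0291) but not without the 3 libraries (-0.58, edgeR adjusted p = 0.0939).

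**Figure D5:**
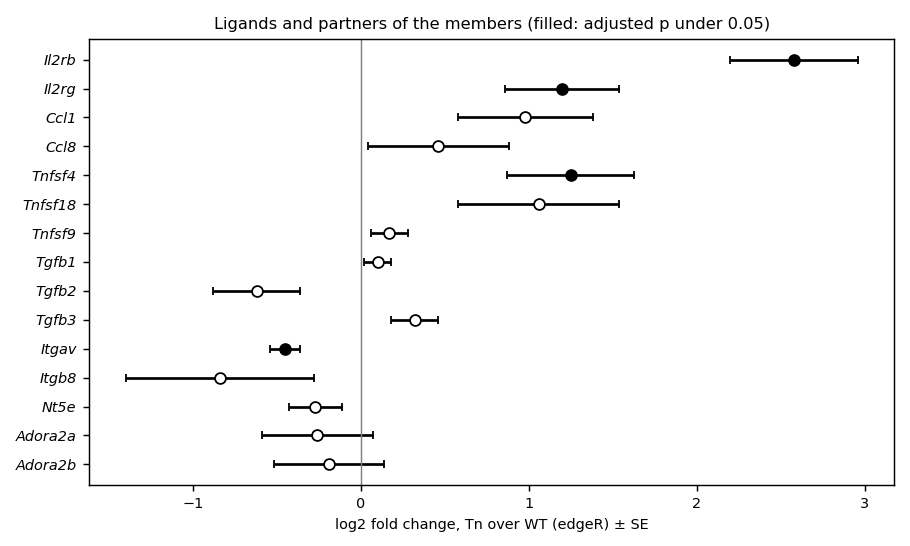
Log2 fold change of Tn over WT with SE for the 15 tested ligands and partners, in the order of the receptor or ligand they belong to; filled points have an adjusted p under 0.05. Il2rb, Il2rg and Tnfsf4 lie to the right and Itgav to the left of 0.

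A list of interleukin-2 receptor signalling held the receptor's beta and gamma chains, kinases, STAT5 genes, their targets, and the related cytokines and receptors of interleukin-7 and interleukin-15. Of its 15 tested genes 9 rose and none fell, beside 19.5% higher and 17.4% lower among all genes. Their median log2 fold change was 0.64, and Il2rb and Il2rg are among the 9. Without Tn tumour 4 the counts were 9 and 1, with a median of 0.54, and without the 3 libraries 7 and 0. With upper-quartile scaling, DESeq2 and limma voom 1 gene of the list was called lower in each. Cish, a feedback inhibitor induced by STAT5, went from 5.51 ± 0.686 to 16.6 ± 3.48 CPM (1.59 ± 0.14, edgeR adjusted p = 2.29e-05). Socs1, another feedback inhibitor, rose by 1.43 (edgeR, adjusted p = 0.00191) and the survival factor Bcl2 by 0.58 (edgeR, adjusted p = 0.000427). In all 3 every Tn tumour lay above every WT tumour, as for 8.81% of all genes. They are named because their p was among the smallest of the list. Interleukin-15 and other cytokines act through the same genes, and Il15 itself was among those that rose (0.94, edgeR adjusted p = 0.00509). In WT, Socs1 averaged 16.1 CPM and Bcl2 38.1 CPM, where Cd3e averaged 0.861 CPM. Which cells made the RNA of this list was not tested.

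A second list held further genes known from regulatory T cells. Of its 25 tested members 14 rose and 1 fell, beside 19.5% higher and 17.4% lower among all genes. Their median log2 fold change was 1.14. Without Tn tumour 4 the counts were 12 and 1, and without the 3 libraries 11 and 2. The smallest p belonged to Tnfrsf1b, the TNF receptor TNFR2, which went from 111 ± 14.8 to 211 ± 29.4 CPM (0.92 ± 0.11, edgeR adjusted p = 0.000101). Ctla4, the inhibitory receptor for CD80 and CD86, went from 0.429 ± 0.22 to 2.39 ± 1.68 CPM (2.48 ± 0.47, edgeR adjusted p = 0.00173). For Ctla4 every Tn tumour lay above every WT tumour, as for 8.81% of all genes. Ebi3, a subunit of interleukin-35 and interleukin-27, rose by 1.72 (edgeR, adjusted p = 0.00192), and Cd83, a surface protein of activated lymphocytes and dendritic cells, by 2.47 (edgeR, adjusted p = 0.00248). The gene that fell was Prdm1, which encodes Blimp-1, from 24.1 ± 7.78 to 12 ± 3.42 CPM (SD, n = 6 each; edgeR, adjusted p = 0.00581). Many genes of this list are also active in other activated T cells or in myeloid cells, and every T cell marker rose in the same tumours. Their part in these changes was not tested.

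Among relatives of the members, 3 of 6 genes of the Ikaros and Foxp families rose and none fell, with a median of 0.24. Ikzf3, which encodes Aiolos of B and T lymphocytes, rose by 4.62 (edgeR, adjusted p = 0.00291) and reached 43 CPM in Tn tumour 4, without which it rose by 3.12. Ikzf1 rose by 1.64 (edgeR, adjusted p = 0.021), or by 0.93 without that tumour, Foxp4 by 0.25 (edgeR, adjusted p = 0.0243), and Ikzf5 was not called. Without the 3 libraries 1 rose and 1 fell, and Ikzf1 (0.85, edgeR adjusted p = 0.0748) and Foxp4 (0.26, edgeR adjusted p = 0.0741) were not called. Among 9 tested costimulatory receptors and ligands of the TNF families 6 rose and none fell, with a median of 0.92. Beside Tnfrsf1b these included Cd27 (3.28, edgeR adjusted p = 0.00596, and 2.04 without Tn tumour 4), Tnfsf14, which encodes LIGHT (1.09, edgeR adjusted p = 0.00734), and Tnfrsf25, which encodes DR3 (1.64, edgeR adjusted p = 0.00984), which was not called without the 3 libraries (1.07, edgeR adjusted p = 0.0677).

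Other cells that can carry these markers were followed by their own lists. Of 7 tested CD4 helper markers 5 rose (median 0.56), of 9 CD8 and cytotoxic markers 8 rose (median 2.86), and of 6 natural killer cell markers all 6 rose (median 2.30). These counts were 4, 8 and 5 without Tn tumour 4, and 4, 8 and 4 without the 3 libraries. In the former fit 1 CD8 and cytotoxic marker was also called lower. The natural killer cell markers Ncr1 (1.28, edgeR adjusted p = 0.106) and Klrb1c (0.86, edgeR adjusted p = 0.182) lost their calls without the 3 libraries. Of 5 markers of type 2 innate lymphoid cells 1 rose, Il13, and 1 fell, Rora. Il13 was close to the floor, at 0 to 0.0823 CPM in WT and 0.107 to 0.445 CPM in Tn. Of 7 markers of mature dendritic cells 1 rose, of 5 keratinocyte markers 1 was called higher, and of 3 lymph node stroma markers none was called by edgeR. The keratinocyte marker was Krt16, at 552 CPM in Tn tumour 6 against a Tn median of 0.692 and a WT median of 2.15 CPM, and without the 3 libraries none of that list was higher and 1 was lower in edgeR. Of 4 B cell markers 3 rose in edgeR with a median of 6.50, and 0 were called with DESeq2 or limma voom. With Tn tumour 4 left out, edgeR called 2 higher and 1 lower, with a median of 1.32. The median over the T cell markers was 3.74, and 2.58 without that tumour. The part of these cells in the rises of Foxp3, Il2ra, Tnfrsf4 and Tnfrsf18 was not tested.

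The genes whose levels followed Foxp3 most closely within the groups were found from log2 CPM after the mean of each group was removed. Over the 12 tumours these were P2ry10, with a Pearson correlation of 0.96, Napsa and Siglech with 0.94 each, the member Tnfrsf4 with 0.93, and Ccr9 with 0.92. Siglech and Ccr9 are best known from plasmacytoid dendritic cells. Tn tumour 4 carries much of this likeness, since the 5 genes over the other 11 tumours were Tpcn2 (0.96), Rbm7 (0.95), Eid1 (0.91), P2ry10 (0.90) and Lrat (0.90), with P2ry10, a G protein-coupled receptor of lymphocytes, in both lists. These values describe the tumours and were not tested.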

How the data were processed

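Messenger RNA was sequenced from 12 tumours, 6 per group, which the labels call biological replicates, and the p-values measure the spread between these tumours. Per the labels, stranded poly(A) libraries were made from RNA with an integrity number above the submitters' limit. Per the submitters' processing notes, FastQC, fastp 0.23, STAR 2.7.11a and featureCounts of Subread 2.1.1 were used with GRCm39. The authors deposited raw, unscaled counts. Per the file headers, reads over the exons of each gene were counted without strand and with no option to count a pair once. The totals per tumour exceed the reads per sample named in the design text, and the cause was not tested, so a count cannot be equated with a molecule or a read pair. Low counts (1 to 40) were even in 65.3% to 71.6% of cases. Without strand, overlapping genes cannot be told apart. The exon length in bases that the authors deposited beside the counts served for levels per kilobase. Symbols came from GENCODE vM39 (56630 of 57186 genes).

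The counts were tested with edgeR 4.0.16 in R 4.3.3 (TMM, filterByExpr by group, robust quasi-likelihood fits, two-sided p adjusted by Benjamini-Hochberg over 19255 genes, threshold 0.05). The biological coefficient of variation was 0.358. SE was taken as the log2 fold change over the square root of the F statistic. Ratios were tested for every gene by an exact two-sided permutation test with 0.05 CPM added, whose smallest p is 0.00216. Both tests were tried on simulated data. All members, their ligands and partners, up to 4 genes per list with the smallest p, and the genes most like Foxp3 (mean of at least 0.5 CPM) are named. Il15, Il13, Gp1bb, Gp5, Flicr, Ppp1r3f, Ccdc22, Gm36995, Gm16008, Cd5, Ncr1 and Klrb1c were named after their values were seen. The members and the 19 lists were chosen with earlier results of these data known. Every Tn library has a lower number in its name than any WT library, and an effect of that order cannot be told apart from the group. Alternatives were other scalings, DESeq2 1.42.0, limma 3.58.1 (voom), no filter, other divisors and pseudocounts, the replicate number as a block, and tumours left out. Promoters came from GRCm39 at the canonical GENCODE start of 14897 tested protein-coding genes. Proteins were not analysed here.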

Additional observations from a re-analysis of the deposited data

Results flagged for a closer look

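Dixon's test was applied on the log2 scale to 40 groups of 6 tumours. They were the CPM and the ratio to Cd3e of each of the 10 members in each genotype, the ratio with 0.05 CPM added to both genes. In 3 groups the distance of a tumour from the others was above Dixon's 95% limit, where chance gives about 1 in 20. The ratios printed below are unlogged. Values that stand far out when unlogged, such as Foxp3 in Tn tumour 4 (9.48 CPM, the other Tn tumours at 0.176 to 1.47 CPM), were not judged on that scale. In WT tumour 6 the ratio of Ikzf4 to Cd3e was 6.4, with the other WT tumours at 0.639 to 1.15, and the ratio of Lrrc32 to Cd3e was 456, with the others at 44.9 to 96.3. That tumour had the lowest Cd3e level, 0.199 CPM from 25 counts. In Tn tumour 4 the ratio of Entpd1 to Cd3e was 1.01, with the other Tn tumours at 5.25 to 11. That tumour had the highest Cd3e level, 46.6 CPM.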

How the results depend on the processing

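With all tumours, 5 members were higher and 1 lower. Without Tn tumours 4 and 6 and WT tumour 6, 3 were higher. Leaving out each tumour gave 4 to 7 members higher and 1 lower, with 3210 to 3778 genes higher and 2833 to 3283 lower. For the ratio to Cd3e, Cd4 as divisor gave 13 genes higher and 12215 lower, with 2 members lower and Ccr8 at 0.07 in place of -1.73. Cd5 as divisor gave 24 genes higher and 4 members lower, and edgeR with Cd3e as offset gave 8 genes higher and 18798 lower. For the ratio to Foxp3, a pseudocount of 0.5 CPM gave 20 genes higher and 5042 lower, with 1 member lower. Leaving out each tumour gave 0 to 10 higher, 0 to 16738 lower and 0 to 3 members lower. Pseudocounts and divisors change these values by construction, and the cause of the other changes was not tested. Across the settings for single genes, the call was the same in 583 cases, lost in 25 and gained in 10, and in 1, Ccr8 per Cd4, it was lost with a change of sign.

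The replicate numbers did not pair the tumours: the correlations of the deviations of same-numbered tumours were 0.17, 0.19, -0.07, -0.15, -0.15 and 0.16, and 1 of 6 WT tumours correlated best with its own number. With the replicate number as a block in edgeR, 5 members were higher and 1 lower, beside 2998 genes higher and 2878 lower. In this edgeR fit Foxp3 was not called (1.91, adjusted p = 0.192) and Tnfrsf9 was (0.42, adjusted p = 0.0368). Other genes named that lost their call included Cd4 (1.75, adjusted p = 0.0901), Tnfsf4 (1.15, adjusted p = 0.102), Ikzf1 (1.20, adjusted p = 0.0875) and Cd5 (1.89, adjusted p = 0.0879). Krt16 also lost its call, with a change of sign (-0.55, adjusted p = 0.755). For the ratio to Foxp3 a block, added after the data were seen, allows a smallest exact sign-flip p of 0.0312, which passes the adjustment only where most genes reach it, so its count of 0 says nothing about stability. Depth limits Foxp3 and Ccr8 in WT, with as few as 8 and 4 counts per tumour.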
